A study of Mus musculus with 8 samples.

Results

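The monoamine and acetylcholine receptor genes are the genes for the receptors of acetylcholine, serotonin, dopamine, noradrenaline and histamine. They were chosen by gene symbol: every row of the expression table named Chrm, Chrna, Chrnb, Chrnd, Chrne, Chrng, Htr, Drd, Adra, Adrb or Hrh with its number where it has one, which gave 55 rows for 53 genes among 56575 features. The 53 genes are 5 muscarinic, 16 nicotinic, 14 serotonin, 5 dopamine, 9 adrenergic and 4 histamine receptor genes. Chrna7 and Htr6 each had 2 rows, and the row with the higher mean was used for the comparison of genotypes.

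These receptors carry the signals of the ascending cholinergic, serotonergic, dopaminergic, noradrenergic and histaminergic fibres, which release their transmitters widely through the hippocampus and tune attention, arousal and memory. The nicotinic receptors and the serotonin receptor of Htr3a are ligand-gated ion channels built of several subunits. The others are G protein-coupled receptors that raise cyclic AMP through Gs, lower it and open potassium channels through Gi, or activate phospholipase C through Gq.

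RNA was sequenced from hippocampi that were taken from C57BL/6 mice aged 8 weeks, in 4 libraries labelled Slm2KO and 4 labelled WT, the wild-type controls. SLM2 is an RNA-binding splicing regulator encoded by Khdrbs3, and the labels name no other allele and no treatment in either group. Nothing in the sources used here says which part of the gene was removed or whether a library is 1 animal or a pool, and p-values therefore measure only how these libraries vary. Khdrbs3 itself held 25932 to 33366 normalised reads in libraries labelled Slm2KO, against 19458 to 24544 in WT libraries, so the label does not show as less of this transcript and directions below go by the labels.

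The libraries held 104020058 to 125985224 recovered reads, of which the receptor genes took 0.0721% to 0.0911%. All 12 marker genes of hippocampal pyramidal and granule neurons had a mean of 10 or more normalised reads, and their sum was 94188 to 124503 in Slm2KO and 97982 to 117953 in WT libraries. Choroid plexus markers were also present (all 13 of 13) and uneven, with a sum of 524857 to 3126950 in Slm2KO and 344327 to 2463490 in WT libraries. Y-linked reads were high in Slm2KO 3, Slm2KO 4 and WT 4 and at most 4 reads in the other libraries, so both groups mix the sexes. In whole tissue, fewer cells of a type and less RNA per cell cannot be told apart.

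Of the 53 receptor genes, 30 had a mean level of 1 or more reads per kilobase of exon and 1e6 reads (RPKM), 12 lay between 0.1 and 1 and 11 were under 0.1. The share at 1 or more, 56.6%, was close to the 55.7% of 21839 named features of the table that had an exon length. The classes differed: all 5 muscarinic, 11 of 14 serotonin, 3 of 4 histamine, 3 of 5 dopamine, 4 of 9 adrenergic and 4 of 16 nicotinic genes were at 1 RPKM or more. Summed over their genes, the levels were 84.2 ± 8.86 RPKM for muscarinic, 48.2 ± 5.86 for adrenergic and 40.7 ± 2.78 for serotonin receptors (SD, n = 8). They were 12.9 ± 2.79 for histamine, 12.2 ± 0.887 for nicotinic and 10.4 ± 0.740 for dopamine receptors. By library, the ranges of the histamine, nicotinic and dopamine sums overlapped, as did those of the adrenergic and serotonin sums.

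**Figure D1:**
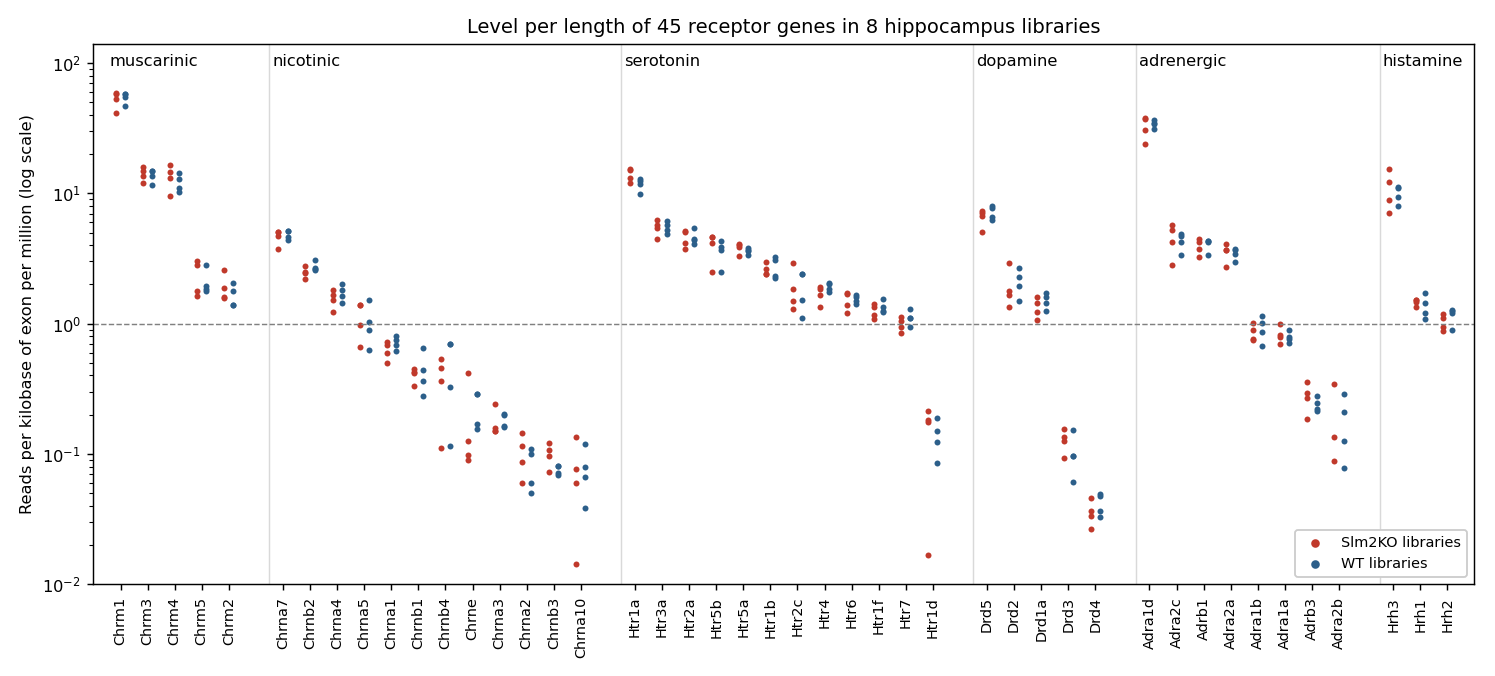
Level per length of 45 of the 46 receptor genes with a mean of 10 or more normalised reads, in RPKM (log scale), by receptor class and ordered by mean level. Each point is 1 library, with Slm2KO in red on the left and WT in blue on the right of each gene, and the dashed line marks 1 RPKM. Chrm1 lies at 41.1 to 59.2 RPKM and the points of the Slm2KO and WT libraries overlap for every gene shown.

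The muscarinic receptors, which bind acetylcholine and act through G proteins, were led by Chrm1, the Gq-coupled receptor of pyramidal neurons. Its level was 57.4, 59.2, 53.4 and 41.1 RPKM in the Slm2KO libraries and 58.0, 57.9, 47.2 and 54.4 RPKM in the WT libraries. It was the highest of all 53 genes in mean level, made up 63.5% of the muscarinic sum, and its lowest library, Slm2KO 4, was still above every library of the next gene in the order. The level of Chrm3, also Gq-coupled, was 12.1, 15.9, 14.8 and 13.6 RPKM in Slm2KO and 13.6, 14.8, 11.6 and 14.8 RPKM in WT libraries. The level of Chrm4, a Gi-coupled receptor, was 16.6, 14.6, 13.0 and 9.52 RPKM in Slm2KO and 14.3, 12.9, 10.3 and 11 RPKM in WT libraries. Chrm5 (2.21 ± 0.572 RPKM) and Chrm2 (1.78 ± 0.395 RPKM), which couple to Gq and Gi, were the lowest of the class (SD, n = 8).

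Few nicotinic subunits reached 1 RPKM. Chrna7, whose subunit forms a channel on its own, stood first at 5.03, 5.05, 4.71 and 3.71 RPKM in Slm2KO and 4.59, 5.12, 4.35 and 5.15 RPKM in WT libraries. That level comes from the row that spans the whole gene (mm10, chromosome 7, 63098692 to 63212571, minus strand, 4505 exon bases), because the row with more reads covers 3608 bases at the 3′ end (63095562 to 63099169) and 10.6% of the annotated exons. Only 478 of the 3608 bases of that short row are annotated exon, and the rest lie beyond the annotated 3′ end of the gene. Read over its own span, the short row had a level of 12.8 RPKM. Chrnb2 (2.60 ± 0.249 RPKM) and Chrna4 (1.64 ± 0.25 RPKM), which form the common high-affinity channel of the brain, followed, and Chrnb2 was above Chrna4 in 8 of 8 libraries, although Adar on the opposite strand overlaps 16.3% of its exons.

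The neighbouring genes Chrna5, Chrna3 and Chrnb4 (mm10, chromosome 9, 54980880 to 55048590) had unequal levels, at 1.06 ± 0.340 RPKM for Chrna5, 0.413 ± 0.230 RPKM for Chrnb4 and 0.178 ± 0.0330 RPKM for Chrna3 (SD, n = 8). Chrna5 codes an accessory subunit, while Chrna3 and Chrnb4 form the channel of autonomic ganglia. The subunits of the muscle receptor ranged from 0.670 RPKM for Chrna1, 0.419 RPKM for Chrnb1 and 0.204 RPKM for Chrne down to a single read in 8 libraries for Chrng and none for Chrnd, where a count of 0 allows 3 reads per library or 0.00724 to 0.00877 RPKM. Chrna9, which with Chrna10 forms the channel of cochlear hair cells, had 59 reads and Chrna6, a subunit of dopaminergic neurons, had 52 reads over all libraries.

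Among the serotonin receptors, Htr1a, the Gi-coupled receptor that also serves as an autoreceptor on serotonin neurons, was highest at 13.0, 15.2, 15.5 and 12 RPKM in Slm2KO and 11.7, 12.9, 9.89 and 12.4 RPKM in WT libraries. It made up 31.4% of the serotonin sum. Htr3a, the channel subunit known from cholecystokinin and VIP interneurons, had a level of 5.47 ± 0.616 RPKM (SD, n = 8), while its partner Htr3b had 23 reads in all 8 libraries. The Gq-coupled Htr2a stood at 4.57 ± 0.584 RPKM and the Gi-coupled pair Htr5b and Htr5a at 3.79 ± 0.861 and 3.72 ± 0.284 RPKM (SD, n = 8). Htr5a was above Htr5b in 2 of 8 libraries, so the order of these 2 genes does not hold beyond their spread. The Gs-coupled Htr4, Htr6 and Htr7 were lower, at 1.80, 1.52 and 1.05 RPKM. The Htr6 row used covers 58.2% of the annotated exons, and its other row, with 60.9%, had 0.811 RPKM. Htr1b had 2.66 ± 0.388 RPKM, with 66.6% of the exons counted overlapped by D430036J16Rik on the opposite strand, whose reads cannot be told apart from its own.

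For dopamine, Drd5, a Gs-coupled receptor of the D1 type, had the highest level, at 7.37, 7.04, 6.74 and 5.01 RPKM in Slm2KO and 6.62, 7.70, 6.28 and 7.95 RPKM in WT libraries. Its exons are overlapped over 46.2% by Gm26560 on the opposite strand. The ratio of Drd5 to Drd1a, the other D1-type receptor (now named Drd1), was 4.97 ± 1.21 and ran from 3.11 to 6.67 (SD, n = 8). Drd2, the Gi-coupled receptor of striatal and midbrain neurons, had 2.01 ± 0.560 RPKM, and Drd3 and Drd4 had 0.114 and 0.0386 RPKM.

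Of the adrenergic receptors, which bind noradrenaline and adrenaline, the Gq-coupled Adra1d was second of all 53 genes. Its level was 37.4, 37.9, 30.8 and 24.0 RPKM in Slm2KO and 34.6, 36.4, 30.9 and 34.0 RPKM in WT libraries. The other alpha1 receptors, Adra1b and Adra1a, had 0.887 and 0.809 RPKM, and the ratio of Adra1d to Adra1b was 38.0 ± 5.55 (SD, n = 8). Adra2c, Adrb1 and Adra2a lay between 3.50 and 4.40 RPKM, and Adrb3 and Adra2b at 0.258 and 0.161 RPKM. Hrh3, the Gi-coupled autoreceptor of histamine neurons that also sits on other nerve endings, made up 76.0% to 85.4% of the histamine sum, at 15.4, 8.81, 12.2 and 7.04 RPKM in Slm2KO and 11.2, 9.33, 7.98 and 10.9 RPKM in WT libraries. Hrh1 and Hrh2 had 1.41 and 1.09 RPKM, and Hrh4, a receptor of blood cells, had 6 reads in all.

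Setting the 53 genes in order of level gives 52 pairs of neighbours. In 2 of them, Chrm1 over Adra1d and Adra1d over Chrm3, the ranges over the 8 libraries did not overlap. In 7 pairs the difference exceeded the combined SD, and these further included Hrh3 over Drd5, Drd5 over Htr3a, Adra2a over Htr1b, Adra1a over Chrna1 and Chrna1 over Chrnb1. The difference of the other neighbours was within their combined SD, a measure that leaves aside that both genes were read in the same libraries. Of these, Chrm4 was above Hrh3 in 8 of 8 libraries, and Htr3a was above Chrna7 and Htr1f above Hrh2 in 7 of 8. With the longest annotated transcript as the length, 9 genes moved by over 1.5-fold in level. Chrna7, Htr2c and Adra1a came to 7.55, 3.58 and 1.65 RPKM, and Htr2a and Adra2c to 2.42 and 2.41 RPKM. Htr6, Chrm2, Htr1b and Hrh2 fell under 1 RPKM. With this length, 27 genes and 4 of 5 muscarinic ones were at 1 RPKM or more. The rows of Htr2a, Adra2c, Htr6, Chrm2, Htr1b and Hrh2 cover only 27.1% (Htr1b) to 58.2% (Htr6) of the annotated exons. Their lower levels thus come from a transcript length that includes bases outside the row.

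Promoter windows of 300 bases, from 250 before to 50 after the annotated start, were found in RefSeq (GRCm38.p6) for 40 of the 53 genes. Chrm1, Chrna2, Chrna6, Chrnb3, Chrnd, Adra1a, Adra1d, Adrb3, Htr3a, Htr4, Htr5b and Hrh4 were among those without one. The ratio of observed to expected CG dinucleotides had a median of 0.628 in the 25 genes at 1 RPKM or more, 0.362 in the 9 genes from 0.1 to 1, and 0.217 in the 6 genes under 0.1, against 0.384 over all 32851 windows of the table. The letters GGGCGG, the binding box of Sp1, were found on either strand in 16 of 25, 4 of 9 and 1 of 6 windows of these bands, and in 35.7% of all windows. The letters TATAAA were found in 2 of the 40 windows and in 13.6% of all windows. These counts describe the letters in the windows and say nothing of which factors bind there.

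The 4 windows that follow run from high to low level and show the range of CG content, with every CG dinucleotide in capitals. Chrm3 and Hrh3 are well-expressed genes, Hrh3 with many more CG than Chrm3, Htr2c is the gene that varied with choroid plexus transcripts, and Htr3b is nearly silent. The windows lie at chr13:10360754-10361053 for Chrm3 (minus strand), chr2:180104358-180104657 for Hrh3 (minus strand), chrX:146962263-146962562 for Htr2c (plus strand) and chr9:48964941-48965240 for Htr3b (minus strand), and hold 11, 47, 5 and 2 CG, against a median of 7 over all windows of the table.
Chrm3: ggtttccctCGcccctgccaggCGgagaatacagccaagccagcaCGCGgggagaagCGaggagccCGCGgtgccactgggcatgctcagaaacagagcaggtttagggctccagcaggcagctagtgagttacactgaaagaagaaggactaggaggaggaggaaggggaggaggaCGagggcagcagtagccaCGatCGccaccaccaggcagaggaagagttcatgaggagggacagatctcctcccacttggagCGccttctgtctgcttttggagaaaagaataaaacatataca
Hrh3: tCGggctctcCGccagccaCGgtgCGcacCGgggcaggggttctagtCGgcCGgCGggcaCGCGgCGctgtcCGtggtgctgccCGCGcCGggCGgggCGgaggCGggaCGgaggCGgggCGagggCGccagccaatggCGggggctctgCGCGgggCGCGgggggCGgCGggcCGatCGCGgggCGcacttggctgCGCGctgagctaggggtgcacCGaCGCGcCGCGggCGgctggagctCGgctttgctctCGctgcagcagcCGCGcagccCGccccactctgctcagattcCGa
Htr2c: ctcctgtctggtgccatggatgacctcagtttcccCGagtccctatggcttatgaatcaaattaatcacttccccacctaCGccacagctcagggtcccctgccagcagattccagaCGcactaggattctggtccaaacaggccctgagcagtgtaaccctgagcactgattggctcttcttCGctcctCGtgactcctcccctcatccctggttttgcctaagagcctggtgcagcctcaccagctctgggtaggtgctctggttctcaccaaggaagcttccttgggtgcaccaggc
Htr3b: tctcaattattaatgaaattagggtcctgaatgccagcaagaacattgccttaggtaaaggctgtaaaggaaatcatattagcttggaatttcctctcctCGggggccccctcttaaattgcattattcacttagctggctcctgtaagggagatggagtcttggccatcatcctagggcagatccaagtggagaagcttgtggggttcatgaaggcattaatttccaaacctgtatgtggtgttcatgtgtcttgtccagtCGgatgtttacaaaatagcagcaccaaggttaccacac

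Across the 40 genes the Spearman correlation of level with the CG ratio was 0.46. It was 0.48 in the 34 whose annotated start lies within 100 bases of the row's start. The genes share the libraries and are not independent, so no test is given. Genes above 1 RPKM with few CG in the window included Htr2a with 6 and Chrm5 with 3, while Adra2b had 29 CG at 0.161 RPKM.

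**Figure D2:**
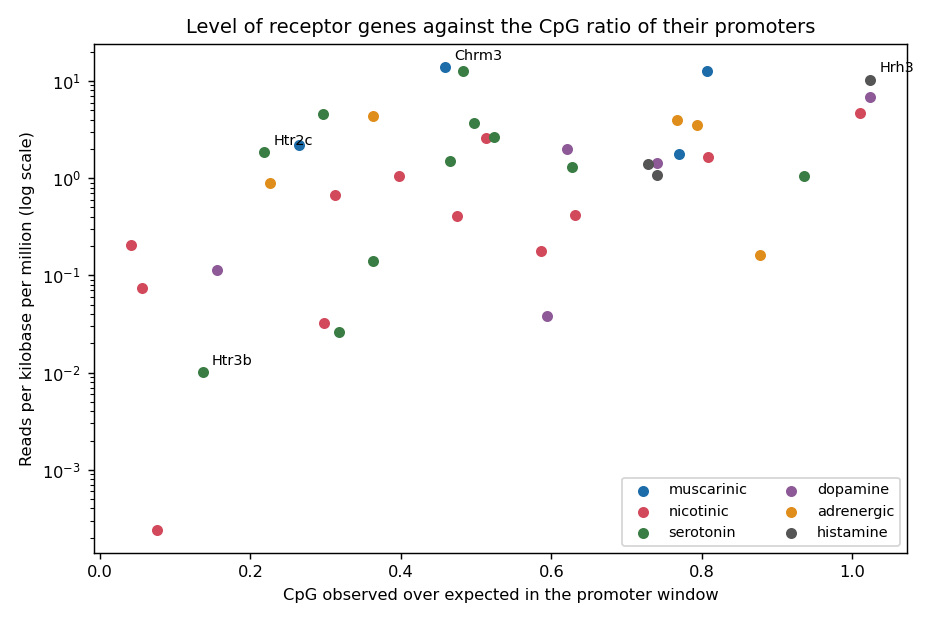
Mean level of 40 receptor genes in RPKM (log scale) against the ratio of observed to expected CG dinucleotides in the 300-base RefSeq promoter window, coloured by receptor class. The 4 genes whose windows are printed are labelled, from Chrm3 at 13.9 RPKM to Htr3b at 0.0101 RPKM, and the Spearman correlation over the 40 genes is 0.46.

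The design asks whether overall gene expression differs between Slm2KO and WT hippocampi. No receptor gene was called higher or lower in the libraries labelled Slm2KO: of the 46 with a mean of 10 or more normalised reads, 0 passed an adjusted p of 0.05 in limma, where 1 of 25667 features (0.00390%) did. None of the 46 had an unadjusted p under 0.05 in limma, against 3.52% of all features. The edgeR and DESeq2 fits also called 0 of 46, where they called 1 and 9 of all 25667 features. DESeq2 gave 6472 features no adjusted p, and any receptor gene or other feature without one counts as not called. The edgeR and DESeq2 fits each gave 1 of 46 an unadjusted p under 0.05, against 3.80% (edgeR) and 3.68% (DESeq2) of all features. The Slm2KO and WT libraries overlapped for each of the 46, whereas 2.50% of all features had groups that did not overlap. An exact permutation test over the 70 assignments of 4 libraries, two-sided, gave no p under 0.05 for any of the 46, with a smallest p of 0.114, where the design allows 0.0286. The remaining 7 genes, Chrna6, Chrna9, Chrnd, Chrng, Htr2b, Htr3b and Hrh4, had too few reads to be tested.

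**Figure D3:**
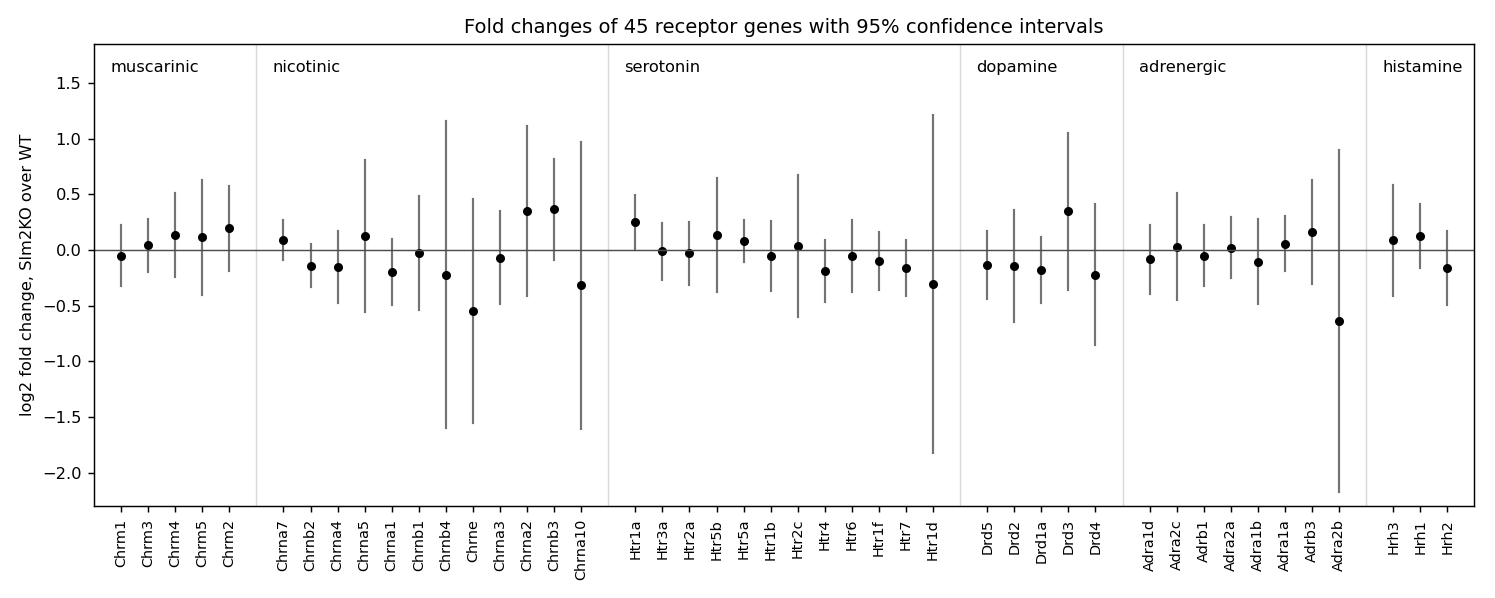
Log2 fold change of normalised read counts, Slm2KO over WT, for 45 of the 46 tested receptor genes, by class and in the order of their level. Points are limma estimates on log2(value + 1) and bars are 95% confidence intervals, and every interval shown includes 0. The intervals are narrow for genes such as Htr5a and Chrnb2 (Chrna7 is drawn from its short 3′ row) and widest for Adra2b, Htr1d and Chrnb4.

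The size of change that these data leave possible differed by gene. The 95% confidence interval of the fold change kept within 1.5-fold either way for 30 of the 46 genes (65.2%, against 65.7% of all features), and within 2-fold for 39. The 7 whose interval reached beyond 2-fold were Chrne, Drd3, Chrna2, Adra2b, Chrna10, Htr1d and Chrnb4, all under 1 RPKM. For Chrm1 the interval ran from 0.80- to 1.17-fold and for Adra1d from 0.76- to 1.17-fold.

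Htr1a had the smallest p of the 46. Its normalised read counts were 6717, 7972, 8135 and 6038 in the Slm2KO libraries and 5936, 6582, 5108 and 6628 in the WT libraries. Slm2KO 2 and Slm2KO 3 stood above the rest, Slm2KO 1 was just above the highest WT library and Slm2KO 4 lay inside the WT range. The log2 fold change was 0.25 (SE 0.11, limma p = 0.0515, adjusted p = 1.00; exact permutation p = 0.114), with 3 of 4 Slm2KO libraries above every WT library.

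Chrnb3, a subunit found with Chrna6 in dopaminergic terminals, had 78.6, 71.5, 91.2 and 51.7 normalised reads in Slm2KO and 50.1, 58.7, 52.6 and 61.3 in WT libraries. Again 3 of 4 Slm2KO libraries were above every WT library and Slm2KO 4 was among the lowest. Its log2 fold change was 0.37 (SE 0.20, limma adjusted p = 1.00).

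On the lower side, Chrnb2 had 2679, 2382, 2439.5 and 2078 normalised reads in Slm2KO and 2452, 2921, 2528 and 2633 in WT libraries (log2 fold change -0.14, SE 0.086, limma adjusted p = 1.00). The Gs-coupled Htr4, which raises cyclic AMP in pyramidal neurons, had 1089, 1048, 959.6 and 736 normalised reads in Slm2KO and 967, 1129, 1036 and 1203 in WT libraries. Slm2KO 4 was the lowest library of both genes, Slm2KO 2 and Slm2KO 3 also lay below the WT range for Chrnb2, Slm2KO 3 did so narrowly for Htr4, and the other Slm2KO libraries lay inside it. The log2 fold change of Htr4 was -0.19 (SE 0.13, limma adjusted p = 1.00). Chrna1, Htr7 and Drd1a had log2 fold changes of -0.19, -0.16 and -0.18, and Chrne of -0.55 (SE 0.45), and none passed. For Chrna7 the direction turned with the row. The log2 fold change was 0.09 (SE 0.079) in the short 3′ row, which has more reads but lies mostly beyond the annotated gene. It was -0.06 (SE 0.12) in the row that spans the whole gene, and neither passed. Htr6 had -0.05 (SE 0.14) in the row used and -0.17 (SE 0.16) in its other row, and neither passed.

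The other class leaders had small log2 fold changes that did not pass: Chrm1 -0.05 (SE 0.12), Adra1d -0.08 (SE 0.14), Hrh3 0.09 (SE 0.22) and Drd5 -0.13 (SE 0.14). In normalised reads, Chrm1 had 41686, 43294, 39315 and 28887 in Slm2KO and 41267, 41361, 34073 and 40520.1 in WT libraries. Without Slm2KO 4, the lowest of the 8, the log2 fold change of Chrm1 was 0.08. Hrh3 had 5445, 3149.7, 4379.6 and 2419 in Slm2KO and 3908, 3257, 2817 and 3974 in WT libraries, so the Slm2KO libraries spanned the WT range on both sides.

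**Figure D4:**
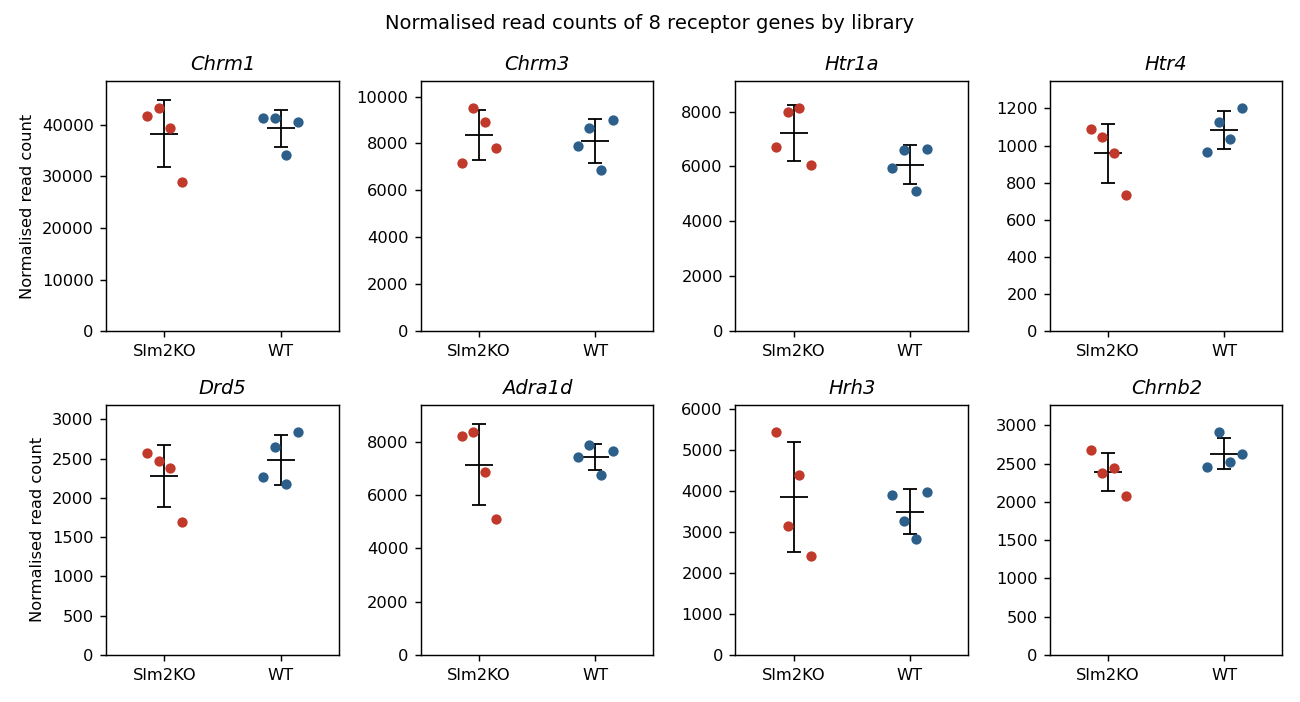
Normalised read counts of 8 receptor genes in the 4 Slm2KO libraries (red, left) and the 4 WT libraries (blue, right), each panel with an axis from 0. Points are libraries 1 to 4 from left to right, and the bars are the mean ± SD (n = 4). The groups overlap in every panel, and Slm2KO 4 is the lowest Slm2KO library in all but Chrm3, with 28887 for Chrm1.

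Over all 46 genes, 19 had a positive and 27 a negative log2 fold change, with a median of -0.05 against -0.01 over all features. Of all 25667 features, 11827 (46.1%) were positive and 13840 negative. By coupling, 1 of 9 Gs-coupled genes was positive (median -0.16), and so were 5 of 9 Gq-coupled (0.03), 9 of 15 Gi-coupled (0.03) and 4 of 13 channel subunit genes (-0.07). Drd5, Drd1a, Htr4, Htr6, Htr7 and Hrh2 were among the negative Gs-coupled genes, and Adrb3 was the positive one. Gm45470 on the opposite strand overlaps 18.8% of the exons of Adrb3. Of the muscarinic genes 4 of 5 were positive (median 0.11). These balances moved when single libraries were left out. Without Slm2KO 4, 25 of the 46 genes were positive and 21 negative (median 0.02), and 4 of 9 Gs-coupled genes were positive (median -0.07), while it was 1 of 9 with any other single library left out. Without Slm2KO 1, 14 were positive and 32 negative (median -0.09), and without Slm2KO 2, 23 were positive and 23 negative (median -0.0025). The Gi-coupled genes were 6 of 15 positive without Slm2KO 1 (median -0.06) or without WT 3 (median -0.02). The Gq-coupled genes ran from 3 of 9 positive without Slm2KO 1 (median -0.04) to 7 of 9 without Slm2KO 4 (median 0.07). The channel subunit genes ran from 3 of 13 positive without Slm2KO 3 to 6 of 13 without Slm2KO 2, WT 1 or WT 3. The muscarinic genes were 3 of 5 positive without Slm2KO 1, Slm2KO 2, Slm2KO 3 or WT 3, with a median as low as 0.0088 without Slm2KO 3, and 5 of 5 without Slm2KO 4. With Slm2KO 4 left out, 5 of the 46 genes had an unadjusted limma p under 0.05, against 1231 of 25667 features (Htr1a, Chrm4, Htr5a, Chrnb3 and, on the lower side, Chrne at a log2 fold change of -1.02), and none passed adjustment (lowest adjusted p = 0.898). With the libraries of lowest and highest Ttr, WT 2 and Slm2KO 4, both left out, 6 of 46 did, against 6.32% of all features, and none passed adjustment (lowest adjusted p = 0.770, the lowest over all alternatives).

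The genes that make, carry and answer these transmitters were looked at beside the receptors. Of 69 tested, 0 passed in limma, 20 had a positive and 49 a negative log2 fold change, and the median was -0.04. Over all features, 46.1% were positive and the median was -0.01. Slc29a4 had no match, and Tmem35a, Grk2 and Grk3 were found under the older symbols Tmem35, Adrbk1 and Adrbk2. None of the 69 had an unadjusted limma p under 0.05.

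The enzymes that make the transmitters sit mostly in cell bodies outside the hippocampus, and of the 11 tested genes for synthesis and vesicle loading the highest levels were those of Ddc (2.33 RPKM), Slc18a2 (1.56 RPKM) and Hdc (0.929 RPKM), which code aromatic amino acid decarboxylase, the vesicular monoamine transporter of neurons and histidine decarboxylase. Their smallest p-values were those of Tph1, Chat and Pnmt, at log2 fold changes of -1.0, -0.75 and -0.71 with SE of 0.47, 0.49 and 0.57, and none passed. Chat, which makes acetylcholine, had 8.90 ± 5.09 normalised reads in Slm2KO and 13.5 ± 2.60 in WT libraries (SD, n = 4 each). Tph1, the tryptophan hydroxylase of the pineal gland and gut, had 57.6 ± 17.1 in Slm2KO and 141 ± 109 in WT libraries.

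Among 9 tested genes of reuptake and breakdown, high levels included those of Maob (12.3 RPKM) and Ache (10.5 RPKM), which break down monoamines and acetylcholine. The serotonin transporter Slc6a4, the histamine-degrading Hnmt and the butyrylcholinesterase Bche had log2 fold changes of -0.67, 0.08 and -0.20, which did not pass. Of 9 tested genes for the assembly and modulation of nicotinic receptors, Lynx1 (125 RPKM), Ly6e (63.5 RPKM) and Tmem35 (48.2 RPKM) stood highest, each at a higher level than Chrna7, which at 4.71 RPKM was the highest nicotinic subunit. Lynx1, which dampens nicotinic channels, had a log2 fold change of -0.10, and the chaperone Ric3 of 0.06.

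Of 28 tested genes for G proteins and effectors, Prkar1a (112 RPKM), Gnas (90.5 RPKM) and Prkaca (58.7 RPKM), all of the cyclic AMP pathway, had the highest levels. The smallest p-values were those of the adenylyl cyclase Adcy5 (log2 fold change -0.10), the potassium channel Kcnj6 (-0.16) and Adcy8 (0.15), and none passed. Of 12 tested genes of desensitisation, Rgs4 (78.2 RPKM), Adrbk1 (35.4 RPKM) and Rgs14 (21.0 RPKM) stood highest, and Rgs8, Arrb1 and Grk4 had log2 fold changes of -0.12, -0.09 and 0.10.

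Across the libraries, 1 receptor gene followed the transcripts of the choroid plexus, the tissue that makes cerebrospinal fluid. Htr2c, the serotonin receptor long known from choroid plexus epithelium as well as from neurons (mm10, chromosome X, 146962511 to 147197276, plus strand), had 2008, 1407, 1634 and 3053 normalised reads in Slm2KO and 2539, 1163, 2569 and 1690.3 in WT libraries. Ttr, transthyretin of the choroid plexus, had 844419, 376053, 830006 and 2262370 in the same Slm2KO libraries and 1519680, 219052, 1791310 and 794256 in the WT libraries. Slm2KO 4 was the highest library of both genes, Slm2KO 2 was second lowest in both and WT 2 lowest in both.

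Over the 8 libraries the Pearson correlation of log2 Htr2c with log2 Ttr was 0.971 (exact permutation p = 4.96e-05, adjusted over all features 0.0220) and Spearman's rho was 0.976 (exact permutation p = 0.000397, adjusted 0.0374). Htr2c was the only receptor gene of 46 that passed, where 442 of 25667 features (1.72%) passed. The correlation was 0.943 when Slm2KO 4 and WT 2, whose Ttr lay farthest from the median, were left out, 0.958 within Slm2KO and 0.984 within WT, and 0.999 and 0.996 within the lower and the higher series of sample numbers. With 1 library left out it was 0.961 to 0.987, and the adjusted p ran from 0.0430 to 0.162, under 0.05 only without WT 2; 7 libraries allow no exact p below 0.000198. Per doubling of Ttr the normalised count of Htr2c was 0.41 higher on the log2 scale. Between genotypes its log2 fold change was 0.03 (SE 0.29), and with the 3 libraries of each group that were left when Slm2KO 4 and WT 2 were set aside it was -0.42. How many of its reads came from choroid plexus was not tested.

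Chrnb4 came next. It had 185, 46.3, 150.3 and 212 normalised reads in Slm2KO and 281, 46.1, 282 and 138 in WT libraries, and so was lowest in the same 2 libraries, Slm2KO 2 and WT 2, that were lowest in Ttr. Its correlation with log2 Ttr was 0.933 (exact permutation p = 0.00181), which did not pass adjustment over all features (0.0696), and Spearman's rho was 0.929. The correlation was 0.967 without Slm2KO 4 and WT 2. Medial habenula markers, whose cells are known for Chrnb4 and Chrna3, had a mean of 10 or more normalised reads in 6 of 7 cases, all but Pou4f1, and summed to 6264 to 9331 in Slm2KO and 6900 to 9861 in WT libraries. Most of that sum was Calb2 (6947 in Slm2KO 4 and 7410 in WT 3), while Tac2 was lowest in Slm2KO 4 (203) and Gpr151 lowest in WT 3 (68.8), libraries where Chrnb4 was high. Their part in this was not tested.

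Of the 46 receptor genes 6 (13.0%) had an unadjusted exact permutation p under 0.05 for the correlation with log2 Ttr, against 18.3% of all features. Besides Htr2c and Chrnb4 these were Chrna3 (0.730), and on the negative side Drd5 (-0.703), Adra1d (-0.695) and Chrm1 (-0.702), none of which passed adjustment. With 1 library left out that count ran from 2 (without Slm2KO 4 or without WT 3) through 3 (without Slm2KO 2) and 4 (without Slm2KO 1, Slm2KO 3 or WT 4) to 17 (without WT 2). The share of all features under 0.05 was not computed with 1 library left out. These counts therefore cannot be read as particular to the receptor genes. The median correlation of the 46 was -0.36, against -0.02 over all features. The 2 libraries with the highest Ttr, Slm2KO 4 and WT 3, had the lowest share of receptor reads (0.0721% and 0.0758%). They also had the lowest sums of hippocampal pyramidal and granule neuron markers (94188 and 97982), although the marker Prox1 was highest in WT 3 (7869). The negative median therefore cannot be read as particular to the receptor genes, and its cause was not tested.

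**Figure D5:**
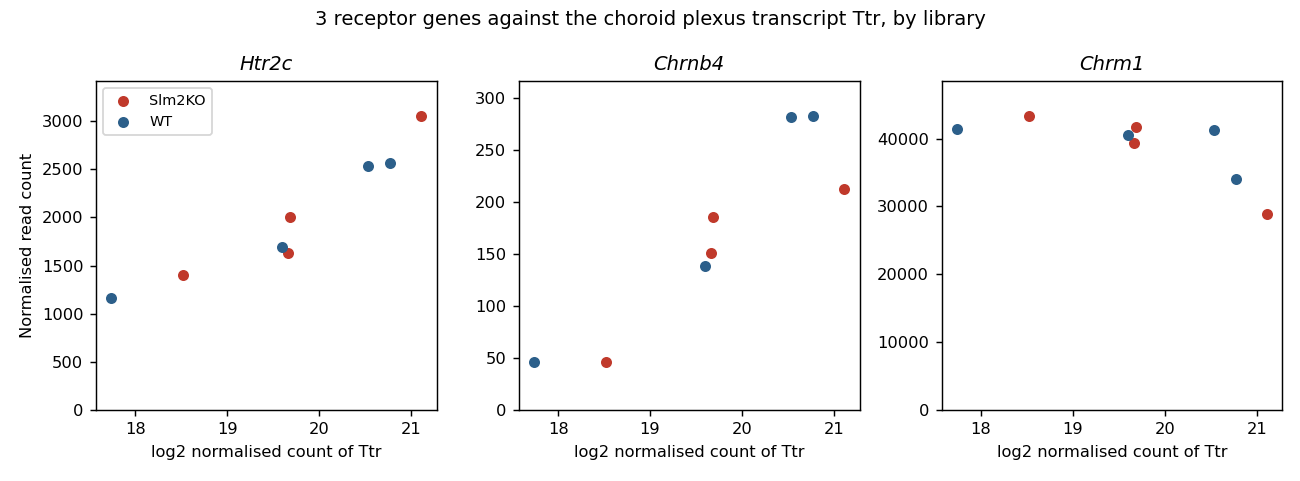
Normalised read counts of Htr2c, Chrnb4 and Chrm1 (axes from 0) against the log2 normalised count of the choroid plexus transcript Ttr, 1 point per library, Slm2KO in red and WT in blue. Htr2c is highest in Slm2KO 4 (3053) and lowest in WT 2 (1163), with a Pearson r of 0.971 on the log2 scale, while Chrm1 is lowest in the library with the highest Ttr.

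Other receptor genes of low level also varied widely between libraries. Adra2b, a Gi-coupled adrenergic receptor known from the thalamus, had 61.0, 10.5, 40.4 and 152 normalised reads in Slm2KO and 56.1, 94.0, 129.6 and 36.4 in WT libraries, a 14.4-fold range. Thalamus markers, of which 6 of 7, all but Gbx2, had a mean of 10 or more normalised reads, summed to 12105, 7793, 12042 and 20659 in Slm2KO and 13682, 14215, 19581 and 10289 in WT libraries. Both were lowest in Slm2KO 2 and highest in Slm2KO 4 and WT 3. Prkcd (8187 in Slm2KO 4 and 8166 in WT 3) and Zic1 (8412 in Slm2KO 4 and 7543 in WT 3) carried most of this sum, whereas Lhx9 was lowest in Slm2KO 4 (819.8) and highest in WT 2 (1090), and Tcf7l2 was 747 in Slm2KO 4 and 654 in WT 3. The part of the tissue in this was not tested. Drd2 had 529, 399, 494 and 832 normalised reads in Slm2KO and 564, 656, 779.6 and 451 in WT libraries, with the same lowest and the same 2 highest libraries. Over all 8 libraries the correlation of Drd2 with log2 Ttr was 0.501 (exact permutation p = 0.207, adjusted over all features 0.511). It was 0.986 within Slm2KO and 0.086 within WT. Without WT 2 it was 0.932 and passed adjustment over all features (exact permutation p = 0.000198, the smallest that 7 libraries allow, adjusted 0.0377). In that setting 421 of 25667 features (1.64%) passed. Htr1d, Chrna10 and Chrne varied 12.1-, 8.96- and 4.40-fold in normalised reads over the 8 libraries, against 1.28- to 1.5-fold for Chrna7, Htr5a, Chrm3, Htr3a and Chrm1. Their lowest values rest on few recovered reads: 6 for Htr1d and 4 for Chrna10 in Slm2KO 2, and 17 for Chrne in Slm2KO 3. Adra2b had 10 in Slm2KO 2. Art1 on the opposite strand overlaps 40.8% of the exons of Chrna10, and its reads cannot be told apart from those of Chrna10. The part of counting error in these wide ranges was not tested.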

How the data were processed

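The deposited table gives a signal value per feature and library, a normalised read count not divided by length. Per the submitters' processing notes, DESeq, SAMtools, Picard and FastQC were used; no source used here names the aligner or the counting program. Those notes give hg19 as the build, but the file header states mm10, whose coordinates are used with mouse symbols. Per the labels' protocols, libraries were made with the TruSeq RNA kit, which does not mark strand.

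From the deposited values, whole reads were recovered (100% whole within 0.001 of a read in each library). The receptor genes and gene lists were chosen with earlier results of these data known. Every receptor gene may be named; of the pathway lists, genes past the threshold are named, otherwise the 3 with the highest level per length and the 3 with the smallest p. Features with a mean of 10 or more (25667 of 56575) were tested on log2(value + 1) with limma 3.58.1 in R 4.3.3 (trended, Benjamini-Hochberg over all features, threshold 0.05); fold changes of low genes are understated on this scale. edgeR 4.0.16 and DESeq2 1.42.0 on recovered reads were alternatives. Levels are recovered reads per kilobase of exon (GENCODE vM21) and 1e6 reads, for rows with at least 25% of the annotated exons. Correlations with log2 Ttr used all orderings of the 8 libraries, with p-values adjusted over all features. Depth of 104020058 reads or more keeps counting error small except for genes with few reads. Single-gene results for 2 genes are not reported here. The tests were checked on simulated data with features drawn independently of each other. Variation shared by many features, such as that with choroid plexus transcripts, was not simulated.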

Additional observations from a re-analysis of the deposited data

Results flagged for a closer look

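Within a group of 4 libraries, 5 of 92 sets of normalised read counts of the tested receptor genes had 1 library set far apart from the other 3, by Dixon's criterion at 95%; chance gives about 1 in 20. Chrna3 was high in Slm2KO 4 (109.9), Chrne was high in Slm2KO 4 (77.6) and Htr1d was low in Slm2KO 2 (6.31). Among the WT libraries, Chrm1 was low in WT 3 (34073) and Chrm5 was high in WT 4 (536).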

How the results depend on the processing

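No receptor gene passed adjustment between Slm2KO and WT under any of the 22 alternatives. The count of features called, 1 of 25667, was 0 in limma without the trend, 9 in DESeq2, 2 with a pseudocount of 10 and 2 with log2 Ttr as a covariate, and 0 to 2 with 1 library left out (0 without Slm2KO 1, Slm2KO 3, WT 1 or WT 4, and 2 without Slm2KO 2 or Slm2KO 4). The count of receptor genes at 1 RPKM or more was 30, and 27 to 32 under its alternatives. Of the 46 tested genes, 22 kept the sign of the log2 fold change under every alternative that could be run. With 1 library left out, the log2 fold change was -0.12 to 0.08 for Chrm1, -0.17 to 0.07 for Adra1d, -0.20 to 0.0043 for Drd5, -0.10 to 0.29 for Hrh3 and -0.20 to 0.19 for Htr2c. The libraries whose omission turned the sign were Slm2KO 4 for Chrm1, Adra1d, Drd5 and Htr2c, WT 2 and WT 4 for Htr2c, and Slm2KO 1 and WT 3 for Hrh3. With the lowest and highest Ttr libraries left out it was 0.11 for Chrm1, 0.10 for Adra1d, 0.04 for Drd5 and -0.42 for Htr2c, which was also -0.0014 once Y-linked reads entered the model; the cause was not tested. The labels do not say that replicate numbers pair the libraries: same-number correlations were 0.12, 0.32, -0.07 and -0.12, and libraries 3 and 4 correlated best with each other's number. A fit with the replicate block called 1 feature and 0 receptor genes. The count of receptor genes that passed with log2 Ttr, 1, was 0 without the 2 libraries farthest from the median. With 1 library left out it was 0 to 2 (2 without WT 2, Htr2c and Drd2, and 0 without any other library). In these settings fewer orderings allow only larger p-values (0.00139 with 6 libraries). Of all 25667 features, 421 (1.64%) passed without WT 2, and 0 passed in the other settings with libraries left out. The correlation of Htr2c stayed between 0.943 and 0.987.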
